A study of Mus musculus with 9 samples.

Results

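Genes of the class IIa histone deacetylases, of the Dach and Eya families and of the sine oculis homeobox family (which holds Six4) were followed in hindlimb skeletal muscle of 5 wild type libraries and 4 libraries of SMN delta 7 mice, a model of spinal muscular atrophy, called SMA here. The 9 genes (Hdac4, Hdac5, Hdac7, Hdac9, Dach1, Dach2, Six4, Eya1 and Eya4) were chosen by name as regulators of muscle that respond to nerve activity, out of 32594 genes in the count table, and all 9 passed the filter on low counts that kept 15873 genes. Both groups shared the FVB/N background. The labels name no treatment and give neither age nor the alleles carried. Nothing in the labels says that each library came from its own animal, so p-values measure the spread between these libraries, which may be technical in part. Library totals lay between 24917665 and 35087722 counts.

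Class IIa histone deacetylases are repressors that carry a histone deacetylase fold with little enzyme activity of its own and act mainly by binding MEF2 transcription factors and recruiting corepressor complexes. Calcium-activated and other kinases phosphorylate them, and 14-3-3 proteins then hold them in the cytoplasm. In textbook accounts of muscle that has lost its nerve, Hdac4 rises and represses Dach2 and Hdac9, which releases myogenin, the product of Myog, and through it the genes of the acetylcholine receptor and of protein breakdown. Dach proteins are nuclear cofactors related to Ski and Sno, while Eya proteins are coactivators with phosphatase activity that bind sine oculis homeodomain factors such as Six4. These factors and Eya together drive fast-fibre and myogenic genes through the MEF3 element.

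The start regions of 3 of the genes are printed to show the letters in front of the member that rose most clearly against its spread (Hdac5), the one with the largest fold change (Dach2) and one whose level hardly moved (Six4). They are RefSeq sequences on GRCm38.p6, from 250 bases before to 50 bases after an annotated start, read 5′ to 3′ on the strand of the gene. Capitals mark matches to the MEF2 consensus, the E-box CANNTG that myogenin and other bHLH factors bind, and the MEF3 letters TCAGGTT, each searched on both strands. The windows are chr11:102230123-102230422 (minus strand) for Hdac5, chrX:113297260-113297559 (plus strand) for Dach2 and chr12:73113196-73113495 (minus strand) for Six4.
Hdac5: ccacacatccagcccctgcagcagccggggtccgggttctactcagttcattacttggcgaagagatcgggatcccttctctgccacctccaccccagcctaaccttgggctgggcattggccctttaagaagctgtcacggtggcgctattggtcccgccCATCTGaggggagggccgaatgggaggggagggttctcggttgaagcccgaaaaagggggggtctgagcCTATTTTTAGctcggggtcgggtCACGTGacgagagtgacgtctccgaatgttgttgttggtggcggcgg
Dach2: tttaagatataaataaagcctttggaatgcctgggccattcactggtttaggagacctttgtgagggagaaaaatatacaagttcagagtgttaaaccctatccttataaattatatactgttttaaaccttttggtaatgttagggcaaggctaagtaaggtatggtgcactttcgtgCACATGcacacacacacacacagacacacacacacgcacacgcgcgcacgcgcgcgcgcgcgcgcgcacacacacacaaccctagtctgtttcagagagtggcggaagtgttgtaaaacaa
Six4: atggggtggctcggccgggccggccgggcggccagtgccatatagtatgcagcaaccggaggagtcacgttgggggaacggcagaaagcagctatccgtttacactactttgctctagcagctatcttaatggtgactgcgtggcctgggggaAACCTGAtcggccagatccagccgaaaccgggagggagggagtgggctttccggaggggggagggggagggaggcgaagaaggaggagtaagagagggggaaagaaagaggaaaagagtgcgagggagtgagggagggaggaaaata

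In the Hdac5 window a MEF2 consensus match began 20 bases before the start (position -20), with E-box letters on either side of it at -89 and 4. The printed Six4 window held the MEF3 letters on its opposite strand at -97, and that of Dach2 held 1 E-box match at -71. Dach2 and Six4 each have another window, not printed (chrX:113298006-113298305 and chr12:73113376-73113675), with 0 matches to any of these motifs. RefSeq gave 15 such windows for 8 of the 9 genes, with none for Eya1. Across these 15 the MEF2 consensus occurred in 1 window and MEF3 in 1, against 3.19% and 4.07% of all 32851 windows of the same length. E-box letters occurred in 8 of the 15, of which both Eya4 windows overlap each other, and in 72.3% of all windows. A match describes letters only, and binding was not measured.

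Of the 9 genes, 4 rose in SMA, 0 fell and 5 did not pass the test (edgeR's quasi-likelihood test, Benjamini-Hochberg adjusted p below 0.05 over all 15873 genes). The background was high, since 54.9% of all genes tested were called, 27.7% as higher and 27.2% as lower. The 44.4% of members called is thus below the share of all genes called, and the 44.4% that rose is above the share that rose. That is on a count of only 9, and the members and the lists below were chosen with earlier results of these data known. Without adjustment, Eya4 was the 1 other member with a p below 0.05, at 0.0416. Wild type and SMA libraries did not overlap for 3 of the 9 genes (33.3%), Hdac5, Hdac7 and Dach2, against 44.2% of all genes. The median log2 fold change was 0.02 over the members and 0.01 over all genes. Scaling to total counts alone moved the median of all genes to 0.24, so every change below is relative to edgeR's TMM scaling, which sets the bulk of genes level.

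Some library-wide facts bear on what follows. Smn1, the mouse survival motor neuron gene, lay at 11.1 to 13.8 CPM (counts scaled to a library of 1000000) in wild type and 1.40 to 2.72 CPM in SMA, as the labels imply. SMA 3 held the lowest SMA value for 6 of the 9 members and wild type 5 the highest wild type value for 5. The share over all genes is not given here. Their TMM factors were the highest (1.165) and the lowest (0.828) of the 9 libraries. Y-linked transcripts were present in 4 of the 5 wild type libraries (all but wild type 3) and in SMA 2 alone among SMA. Of the markers of muscle fibres 7 of 8 fell (summed level 128095 to 181397 CPM in wild type, 68218 to 82477 in SMA), of Schwann cells 5 of 6 rose (386 to 885 and 986 to 2226 CPM) and of endothelium 0 of 8 rose and 3 fell (662 to 817 and 631 to 748 CPM). Of fibroblast markers 5 of 6 fell and 1 rose, of smooth muscle and pericyte markers 3 of 6 fell and 0 rose, and of macrophage markers 3 of 6 fell and 1 rose. Satellite cell markers were divided (2 of 6 rose and 2 fell), 1 of 6 adipocyte markers rose and 3 fell, all 4 blood markers with a row fell, and no listed marker with a row was at 0 in all libraries. In bulk tissue, fewer cells of a type and less RNA per cell cannot be told apart, and the part of cell composition in the changes below was not tested.

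Hdac5 was the class IIa gene with the largest rise. It encodes a class IIa repressor that leaves the nucleus when kinases of the CaMK and protein kinase D families phosphorylate it, and it lies on chromosome 11 from 102194432 to 102230166 (mm10, minus strand). Its level was 68.2, 66.0, 60.0, 64.4 and 64.4 CPM in wild type 1 to 5 and 170, 150, 120 and 149 CPM in SMA 1 to 4. Wild type libraries were tightly grouped, and the lowest SMA library, SMA 3, was still far above them. Hdac5 rose 2.28-fold, a log2 fold change of 1.19 ± 0.10 (SE), and edgeR gave it an adjusted p of 1.49e-06. The microRNA gene Mir8101 lies within it and shares 111 exon bases.

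Hdac4, the class IIa gene most closely tied to denervation in textbook accounts, rose less evenly (chromosome 1, 91928779 to 92195699, minus strand). The wild type libraries held 15.7, 11.6, 16.0, 9.79 and 16.1 CPM and the SMA libraries 24.6, 24.5, 12.4 and 29.1 CPM. SMA 1, 2 and 4 were above every wild type library, whereas SMA 3 was within the wild type range. Hdac4 rose 1.64-fold, a log2 fold change of 0.71 ± 0.22 (SE; adjusted p = 0.0166 by edgeR). The call was lost with sex as a covariate (0.68, adjusted p = 0.0587) and without SMA 4 (0.57, adjusted p = 0.0615), and the change was 0.91 without SMA 3.

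The count table also holds a separate row named Hdac4_, and what it counts is not stated in the sources used here. That row had 4.04 to 6.001 CPM in wild type and 4.53 to 7.89 CPM in SMA, ranges that overlap, with a log2 fold change of 0.29 ± 0.18 and an adjusted p of 0.186 by edgeR. Reads of the gene may therefore be divided between the rows. With both rows summed, the log2 fold change was 0.61, and edgeR gave an adjusted p of 0.0101. In GENCODE M21 a lincRNA on the opposite strand, Gm26720, shares 3536 exon bases with Hdac4, and the strand setting of the counting is not stated.

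Hdac7 showed the smallest rise that passed. It encodes the class IIa member known best for its part in endothelium and thymocytes (chromosome 15, 97792664 to 97844502, minus strand). Levels were 56.7, 66.5, 62.0, 62.0 and 53.4 CPM in wild type and 77.7, 73.4, 77.4 and 73.3 CPM in SMA. The groups did not overlap, though the gap between wild type 2 and SMA 4 was narrow. Hdac7 rose 1.25-fold, a log2 fold change of 0.33 ± 0.08 (SE; adjusted p = 0.00312 by edgeR). Of the 8 endothelial markers 0 rose and 3 fell, and their bearing on the change in Hdac7 was not tested. Slc48a1, on the opposite strand, shares 29 exon bases with Hdac7.

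Hdac9 (chromosome 12, 34047580 to 34917095, minus strand), whose short form lacking the deacetylase domain is known as MITR, did not pass. It had 9.37, 7.81, 8.50, 8.53 and 6.95 CPM in wild type and 9.28, 5.88, 3.89 and 5.81 CPM in SMA. SMA 2, 3 and 4 were below all wild type libraries, and SMA 1 was near the top of the wild type range. The log2 fold change was -0.40 ± 0.20 (SE; adjusted p = 0.107 by edgeR). Without SMA 1 it was -0.66 and passed, at 0.00614, and without SMA 3 it was -0.24. Counts are per gene, so the MITR form cannot be told from the long form.

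**Figure D1:**
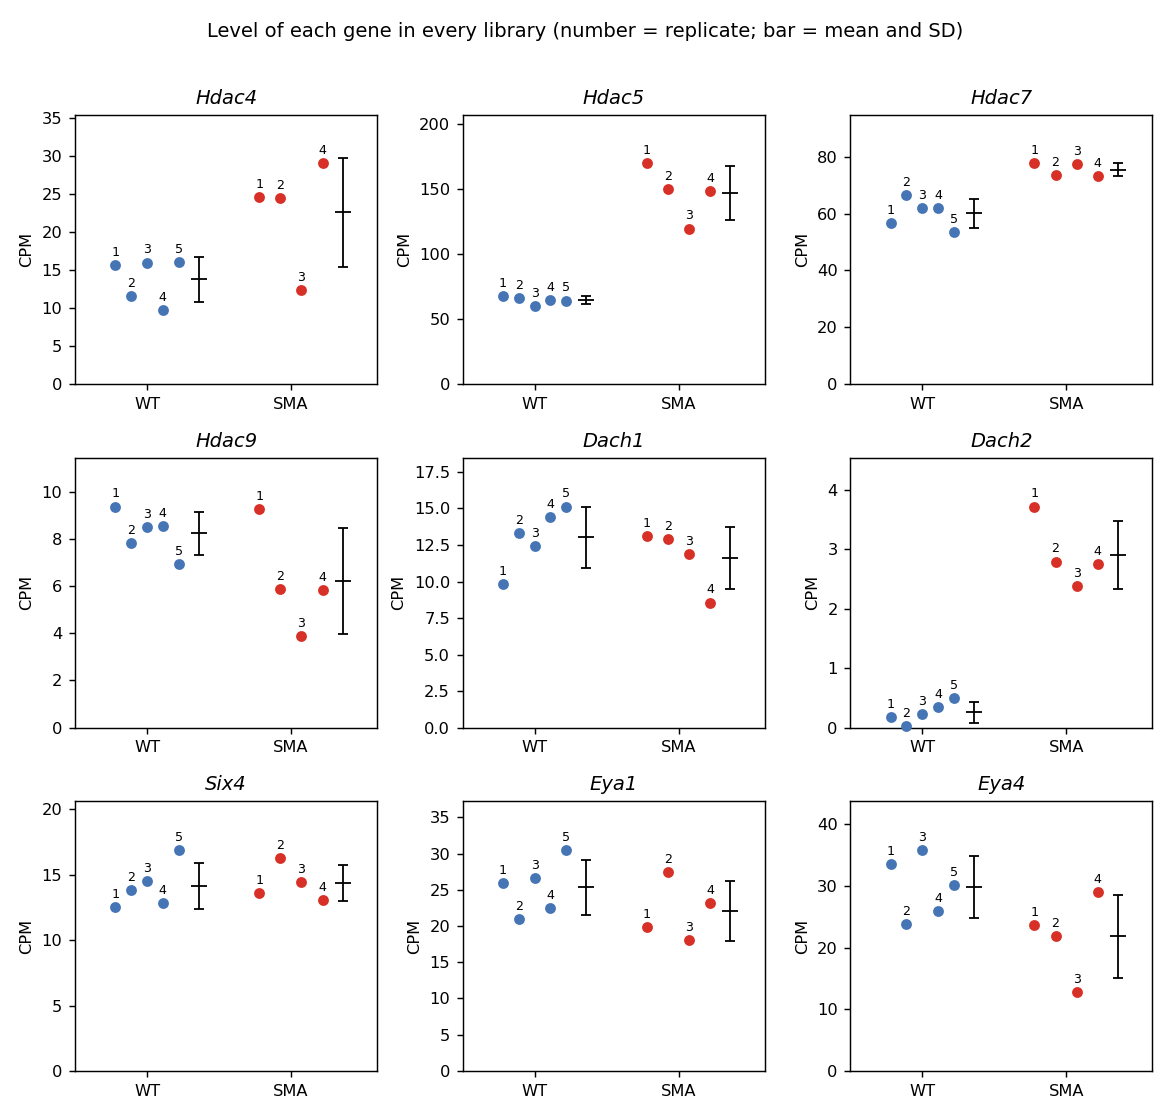
CPM (y axis, from 0) of the 9 genes in each of 5 wild type (WT) and 4 SMA libraries, with the replicate number above each point and the group mean and SD as a bar. Hdac5, Hdac7 and Dach2 do not overlap between the groups, and SMA 3 lies inside the wild type range for Hdac4 at 12.4 CPM.

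Dach2 had by far the largest change of the 9 genes (chromosome X, 113297510 to 113836386, plus strand). It encodes a cofactor that lowers Myog in muscle with an active nerve. Only 4, 1, 6, 10 and 14 reads were counted in wild type 1 to 5, against 130, 105, 85 and 98 in SMA 1 to 4. Scaled levels were 0.176, 0.0323, 0.229, 0.350 and 0.496 CPM in wild type and 3.72, 2.80, 2.38 and 2.75 CPM in SMA. Every SMA library was above every wild type library. The wild type values rest on few reads and differ widely among themselves. Dach2 rose 11.2-fold, a log2 fold change of 3.48 ± 0.40 (SE; adjusted p = 2.06e-05 by edgeR). The gene is X-linked. Wild type 3, the wild type library without Y-linked transcripts, was within the range of the other wild type libraries, and SMA 2, the SMA library with them, was within that of the other SMA libraries. With sex as a covariate the log2 fold change was 3.49. Only 1 wild type library lacked Y-linked transcripts and only 1 SMA library had them. The part of sex in this change was not tested further.

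Dach1, its paralog on chromosome 14 (97786853 to 98169765, minus strand), did not pass. It had 9.80, 13.3, 12.5, 14.4 and 15.1 CPM in wild type and 13.1, 12.9, 11.9 and 8.56 CPM in SMA, and the ranges overlap. The log2 fold change was -0.17 ± 0.15 (SE; adjusted p = 0.363 by edgeR), and its sign turned under scaling to total counts, to 0.07. As a share of all Dach reads, which needs no scaling, Dach2 made up 1.87% ± 1.07 (SD, n = 5; 0.242% to 3.17%) of the wild type reads. In SMA it made up 20.2% ± 3.59 (SD, n = 4; 16.7% to 24.3%). Dach1 remained the larger share in all 9 libraries, at 75.7% or more.

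None of Six4, Eya1 and Eya4 passed. Six4, a homeodomain factor active in muscle (chromosome 12, 73099609 to 73113456, minus strand), had 12.5, 13.8, 14.5, 12.9 and 16.9 CPM in wild type and 13.6, 16.2, 14.5 and 13.1 CPM in SMA. All 4 SMA values were inside the wild type range. The log2 fold change was 0.02 ± 0.11 (SE; adjusted p = 0.875 by edgeR), its sign turned without wild type 1, wild type 4 or SMA 2, and it was 0.26 under scaling to total counts.

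Eya1, a coactivator of sine oculis factors (chromosome 1, 14168954 to 14310235, minus strand), had 26.0, 21.0, 26.6, 22.4 and 30.5 CPM in wild type and 19.9, 27.4, 18.0 and 23.2 CPM in SMA. The ranges overlap, with SMA 1 and SMA 3 below all wild type libraries. Its log2 fold change was -0.19 ± 0.14 (SE; adjusted p = 0.246 by edgeR), and 0.05 under scaling to total counts.

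Eya4 (chromosome 10, 23102963 to 23350786, minus strand), another coactivator of the family, had the lowest log2 fold change of the 9 genes. Its levels were 33.5, 23.8, 35.9, 26.0 and 30.2 CPM in wild type and 23.7, 21.9, 12.8 and 29.0 CPM in SMA. SMA 4 was inside the wild type range and SMA 3 far below the other libraries. The log2 fold change was -0.45 ± 0.20 (SE; adjusted p = 0.0715 by edgeR). It passed without wild type 2 (-0.53, adjusted p = 0.0489) and without SMA 4 (-0.62, adjusted p = 0.0226), and was -0.26 without SMA 3.

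Per kilobase of annotated exon, the class IIa genes Hdac5 and Hdac7 were the most abundant of the 9 and Dach2 the least in both groups. In wild type the order by mean CPM per kb was Hdac7 (8.90 ± 0.755, SD, n = 5), Hdac5 (7.36), Eya1 (3.24), Eya4 (3.17), Dach1 (1.78), Six4 (1.30), Hdac4 (0.874), Hdac9 (0.561) and Dach2 (0.0260). Neighbouring ranges overlapped for Eya1 and Eya4, for Dach1 and Six4, and for Hdac4 and Hdac9, so their order does not exceed the spread. In SMA the order began with Hdac5 at 16.7 ± 2.35 CPM per kb (SD, n = 4), ahead of Hdac7 at 11.2, and those ranges did not overlap. Hdac4, at 1.43, stood between Dach1 (1.59) and Six4 (1.32), all with overlapping ranges, and Dach2, at 0.295, overlapped with Hdac9 at 0.424. With the longest transcript as the length, Hdac5 (11.9) and Hdac7 (11.6) overlapped in wild type, with Hdac5 first. By that length Hdac4 (2.79) preceded Dach1 (2.23) in SMA, with overlapping ranges. This order leaves out the Hdac4_ row. With it, at the length of Hdac4, Hdac4 was at 1.19 CPM per kb in wild type, no longer overlapping with Hdac9. In SMA Hdac4 with that row was at 1.82, ahead of Dach1, with overlapping ranges. The RNA forms actually present are not known from these counts, so levels between genes are approximate.

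The make-up of the class IIa family also differed. Summed over Hdac4, Hdac5, Hdac7 and Hdac9, wild type libraries held 147 ± 4.36 CPM (SD, n = 5) and SMA libraries 251 ± 28.2 CPM (SD, n = 4), and the lowest SMA library, at 213 CPM, exceeded the highest wild type library, at 152 CPM. Of the reads of these genes, Hdac5 took 41.0% to 45.7% in wild type and 56.1% to 60.4% in SMA. Hdac7 took 37.8% to 43.8% and 27.6% to 36.3%, and Hdac9 4.93% to 6.25% and 1.82% to 3.30%. The share of Hdac4 was similar in range, 6.76% to 11.4% in wild type and 5.79% to 11.3% in SMA. So Hdac7, whose level rose, took less of the family total, and the shares of Hdac5, Hdac7 and Hdac9 did not overlap between the groups. Shares follow gene length as well as level and are given as a description. The sum and the shares leave out the Hdac4_ row. With its reads added to Hdac4, Hdac4 took 9.47% to 13.88% in wild type and 8.55% to 13.96% in SMA, which still overlap, and the sum was 152 ± 5.24 CPM (SD, n = 5) against 257 ± 27.9 CPM (SD, n = 4). The shares of Hdac5, Hdac7 and Hdac9 did not overlap between the groups then either.

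**Figure D2:**
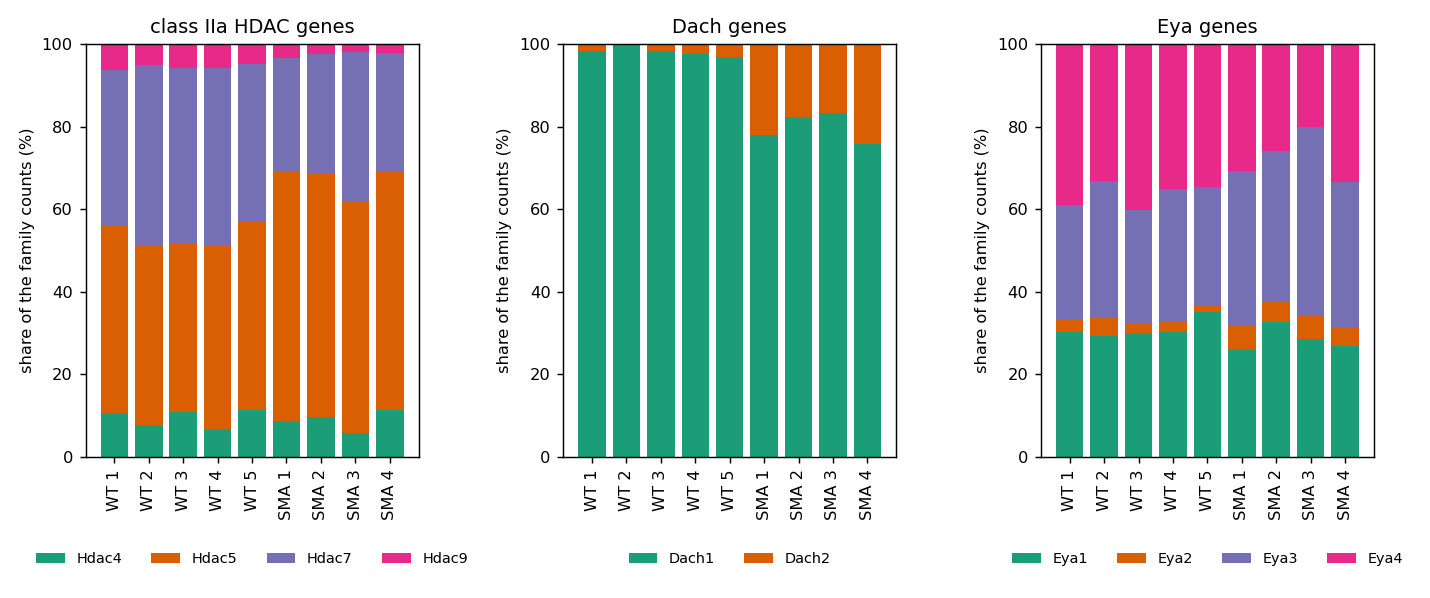
Share of each gene (y axis, percent) in the summed reads of the class IIa HDAC, Dach and Eya genes, for each WT and SMA library on the x axis. Hdac5 takes 56.1% or more of the class IIa reads in every SMA library, and Dach2 16.7% or more of the Dach reads.

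The remaining genes of these families were divided. Of 6 other genes of the Six4 and Eya families looked at, 4 could be tested, of which 3 rose and 1 fell. Among all genes tested, 27.7% rose and 27.2% fell. Log2 fold changes (± SE) were 0.90 ± 0.21 for Eya2, 0.50 ± 0.15 for Six5 and 0.30 ± 0.06 for Eya3, which rose, and -0.77 ± 0.18 for Six2, which fell. Eya2 went from 2.23 ± 0.691 CPM in wild type (SD, n = 5) to 4.16 ± 0.310 CPM (SD, n = 4), and Six2 from 9.97 ± 2.58 to 5.84 ± 1.11 CPM. Their adjusted p-values by edgeR lay between 0.00168 for Eya3 and 0.0118 for Six5. Within the Eya reads, Eya2 took 1.58% to 4.37% in wild type and 4.81% to 5.91% in SMA, and Eya3 27.3% to 33.0% and 35.1% to 45.5%, while Eya1 and Eya4 overlapped between the groups. Six3 and Six6 had too few reads to test, and Six3 had 24 reads in SMA 3 and 0 in every other library.

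Among the other histone deacetylase genes, 3 of 7 rose, 1 fell and 3 did not pass. That share called is near the 54.9% of all genes tested that were called. The class IIb genes Hdac10, whose product deacetylates polyamines, and Hdac6, the deacetylase of tubulin, rose, with log2 fold changes of 0.83 ± 0.10 and 0.35 ± 0.09 (SE), as did the class IV gene Hdac11 at 0.35 ± 0.10. The class I gene Hdac2 fell, at -0.54 ± 0.07. Hdac3, the enzyme that class IIa proteins recruit with their corepressors, had 71.2 ± 2.77 CPM in wild type and 69.3 ± 1.89 in SMA (log2 fold change -0.04 ± 0.06, and 0.20 under scaling to total counts, where it passed at 0.0448 by edgeR). Hdac1 and Hdac8 had log2 fold changes of -0.08 ± 0.10 and -0.03 ± 0.13, and turned to 0.14 and 0.21 under that scaling. Hdac11 lost its call with sex as a covariate (adjusted p = 0.0725 by edgeR). Of the Ski and Sno genes related to Dach, Skil fell (log2 fold change -1.08 ± 0.14; 20.4 ± 3.60 CPM in wild type, 9.64 ± 1.41 CPM in SMA), and Ski had a log2 fold change of 0.24 ± 0.12 (adjusted p = 0.117 by edgeR) that passed without SMA 3 (0.35) and under scaling to total counts (0.46).

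**Figure D3:**
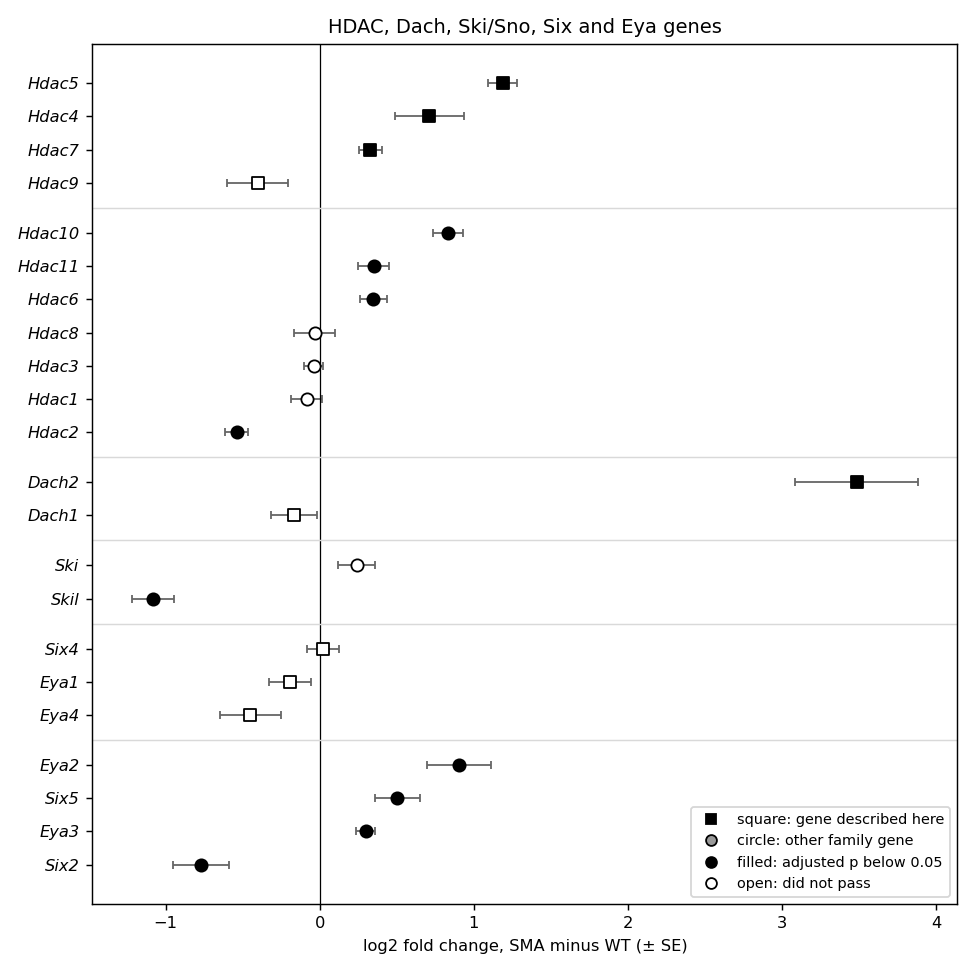
Log2 fold change of SMA minus WT with its SE (x axis) for HDAC, Dach, Ski, sine oculis and Eya genes, with squares for the 9 genes followed here, circles for other family genes and filled symbols for an adjusted p below 0.05. Dach2 stands apart at 3.48, and the squares of Six4, Eya1 and Eya4 lie between -0.45 and 0.02.

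Genes of partners of the class IIa proteins rose more often than they fell. Of 12 MEF2 and corepressor genes, 6 rose, 1 fell and 5 did not pass, with a median log2 fold change of 0.24 against 0.01 for all genes. Over all genes tested 54.9% were called, 27.7% as higher and 27.2% as lower. Mef2b, a MEF2 factor of low level in muscle, rose from a mean of 0.726 to 2.77 CPM, a log2 fold change of 1.93 ± 0.19 (SE). Gps2, a subunit of the corepressor complex of Hdac3, rose by 0.64 ± 0.10, and Rfxank, whose product binds class IIa proteins, by 0.56 ± 0.07. Under scaling to total counts 10 rose and 1 fell, with a median of 0.48 against 0.24 for all genes. There 6385 of all 15873 genes rose. Without wild type 5 and SMA 3, 9 rose and 1 fell. Of 19 genes of kinases that phosphorylate class IIa proteins or act upstream of them, 5 rose, 7 fell and 7 did not pass. That stands beside the 27.7% of all genes that rose and the 27.2% that fell. Stk11, which encodes the kinase LKB1 that activates salt-inducible kinases, rose by 0.90 ± 0.07 and Sik3, one of those kinases, rose 2.29-fold. Camk2a, a calcium/calmodulin kinase gene, fell, at -1.19 ± 0.11, with 398 ± 48.6 CPM in wild type and 174 ± 16.3 CPM in SMA. The kinase list held 7 that rose and 2 that fell under scaling to total counts, and 5 and 3 with sex as a covariate, so its balance depends on these settings.

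The 14-3-3 genes did not rise in any setting tried. Of 7, 0 rose, 5 fell and 2 did not pass, with a median log2 fold change of -0.36, where 27.2% of all genes fell. Under scaling to total counts 1 fell, with a median of -0.12. Ywhah, Ywhaq and Ywhab fell, with log2 fold changes of -0.48 ± 0.07, -0.41 ± 0.08 and -0.35 ± 0.08 (SE), and Ywhaq and Ywhab lost their calls under that scaling. The count of genes that fell in this list therefore depends on the scaling.

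Genes described as downstream of Hdac4, Dach2 and myogenin, among them those of the acetylcholine receptor, moved in both directions, and Myog itself was lower. Of 16 tested, 8 rose, 3 fell and 5 did not pass, with a median log2 fold change of 0.60. Among all genes tested, 27.7% rose and 27.2% fell. The cell cycle inhibitor gene Cdkn1a and the ubiquitin ligase gene Fbxo32 rose, with log2 fold changes of 4.12 ± 0.16 and 3.05 ± 0.26 (SE). The receptor subunit genes differed among themselves: Chrnb1 fell, at -0.79 ± 0.08, while Chrnd and Chrna1 rose, at 1.20 ± 0.14 and 1.05 ± 0.16 (adjusted p = 2.01e-05 and 2.17e-04 by edgeR). Chrng (0.49 ± 0.22, adjusted p = 0.0753 by edgeR) and Chrne (-0.18 ± 0.10, adjusted p = 0.140 by edgeR) did not pass. Under scaling to total counts Chrng passed, at 0.70, and Chrne turned to 0.0560. Chrnd, Chrna1, Chrng and Chrne were named after their values were seen, as was Myog. Myog held 123 ± 9.82 CPM (SD, n = 5) in wild type libraries and 92.7 ± 8.30 CPM (SD, n = 4) in SMA libraries. It fell, with a log2 fold change of -0.41 ± 0.09 (SE; adjusted p = 0.00188 by edgeR), but not under scaling to total counts (-0.17, adjusted p = 0.0840 by edgeR). Schwann cell markers rose in the same libraries, as given above, and their part in this list was not tested.

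Genes listed as targets of sine oculis factors and Eya in fast muscle were lower, and their regulation by these factors was not tested. Of 16 tested, 0 rose, 13 fell and 3 did not pass, with a median log2 fold change of -0.99, and 11 fell under scaling to total counts. With TMM scaling 27.2% of all genes fell. Pvalb, the calcium buffer parvalbumin, the fast Z-disc gene Actn3 and the fast regulatory myosin light chain gene Mylpf fell, with log2 fold changes of -4.44 ± 0.23, -2.19 ± 0.15 and -1.45 ± 0.14 (SE). Muscle fibre markers as a whole were lower too, since 7 of 8 fell, and the lists share Ckm, Myh4 and Tnnt3. Of 8 glycolysis genes linked to Hdac4, 0 rose, 7 fell and 1 did not pass (5 fell under scaling to total counts), with Ldha, Eno3 and Pgam2 at -1.23 ± 0.12, -1.21 ± 0.12 and -1.29 ± 0.14. Eno3 and Myog are each in 2 of these lists, and the adjusted p-values of Cdkn1a (1.57e-08), Pvalb (8.98e-08) and Ldha (7.43e-06) were by edgeR.

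**Figure D4:**
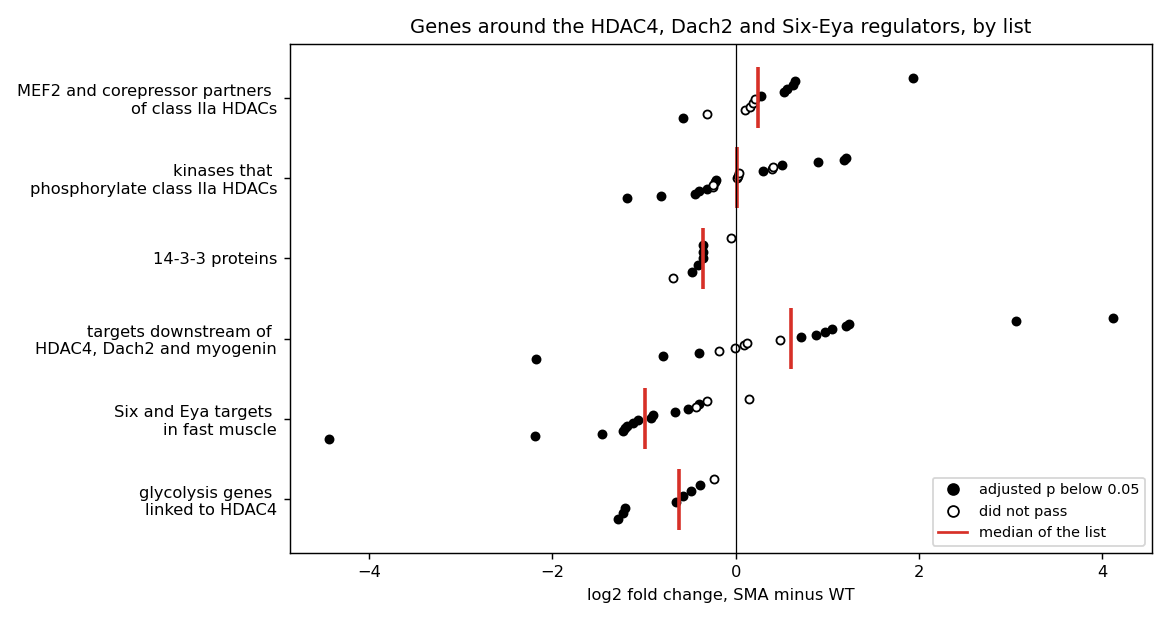
Log2 fold change of SMA minus WT (x axis) for each tested gene of 6 lists of partners, kinases and targets, with filled points for an adjusted p below 0.05 and a bar at the median of each list. The median is -0.99 for the listed targets of sine oculis factors and Eya, and 0.60 for those listed downstream of Hdac4, Dach2 and myogenin.

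The genes with profiles most like those of the largest riser and of the lowest member were looked up by the root mean square difference of log2 CPM, each gene centred on its own mean, over 9 libraries and 13852 other genes of at least 1 CPM on average. For Dach2 they were Fbxo32 (0.607), Zdhhc23, a palmitoyltransferase gene (0.654), and Sidt1 (0.693). Fbxo32 had 32.9 to 81.3 CPM in wild type and 252 to 528 CPM in SMA, with its lowest SMA value in SMA 3, like Dach2. For Eya4 the nearest were the calcium/calmodulin kinase gene Camk2b (0.0918), Hivep2 (0.106) and 4931440F15Rik (0.116). The difference is not scaled to the size of a gene's change, so values for Dach2 and Eya4 are not comparable. Camk2b had 268, 232, 291, 222 and 264 CPM in wild type and 200, 184, 123 and 245 CPM in SMA, so that wild type 3 was highest and SMA 3 lowest for both Camk2b and Eya4. Camk2b fell, at -0.44 ± 0.17 (SE; adjusted p = 0.0378 by edgeR), and lost that call in 10 of 18 alternatives, among them without SMA 3 (-0.29, adjusted p = 0.0590) and under scaling to total counts (-0.21).

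The member calls were recomputed under 18 alternatives. Hdac5, Hdac7 and Dach2 were called as higher in all 18, with log2 fold changes of 1.11 to 1.41, 0.27 to 0.55 and 3.17 to 3.96. Hdac4 was called in 16, at 0.57 to 0.98. Hdac9 and Eya4 were lower in all 18 and passed in 2 each, and Dach1, Six4 and Eya1 passed in none.

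**Figure D5:**
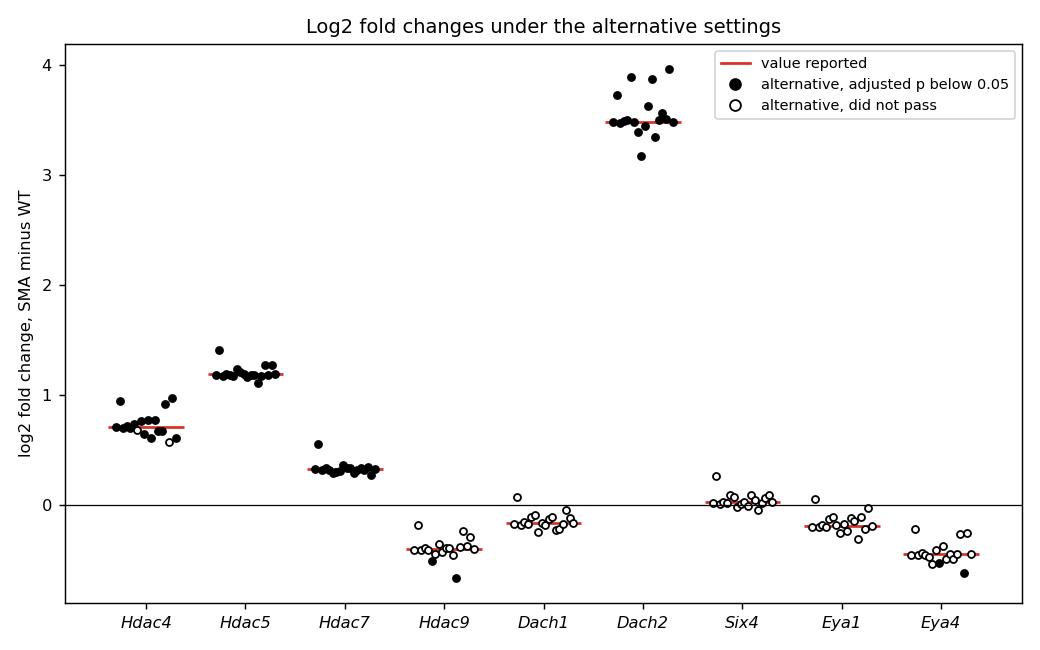
Log2 fold change of SMA minus WT (y axis) of the 9 genes under 18 alternative settings (points, filled where the adjusted p is below 0.05), with the reported value as a red bar. Hdac5, Hdac7 and Dach2 have filled points only, while Dach1, Six4 and Eya1 have none.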

How the data were processed

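RNA of hindlimb skeletal muscle was measured in 5 wild type and 4 SMA libraries, prepared as stranded mRNA, per the labels' protocols. The values tested are the deposited gene counts, whole numbers. The authors also deposited a scaled signal, the same counts over a size factor for every library. These factors (0.734 to 1.23) equal the median of ratios computed from the counts, and the signal had no other use. The submitters' processing notes name HTSeq 0.9.1, DESeq2 1.16.1 and mm10 with no role. What aligner, annotation and strand setting were used is not stated in those notes or the labels.

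The fit used edgeR 4.0.16 in R 4.3.3 (filterByExpr, TMM, quasi-likelihood test with group as the only term, all 9 libraries, Benjamini-Hochberg adjustment over 15873 genes, threshold 0.05). The SE is the log2 fold change divided by the square root of F. Depth was 24917665 to 35087722 counts, so the single Dach2 read of wild type 2 is 0.0323 CPM. Log2 CPM for profile comparison used a prior count of 2. The procedure was tested on simulated data. Members and lists were chosen with earlier results of these data known. Named were all members, the other HDAC, sine oculis, Eya, Ski and Sno genes, the 3 lowest adjusted p-values of each other list, the 3 nearest profiles of the highest and lowest member, Smn1 and, after values were seen, Myog and acetylcholine receptor genes; 1 gene is not reported here. Alternatives were other scalings and filters, DESeq2 1.42.0, a replicate block, sex as a covariate (from Y-linked genes and Xist), each library left out, wild type 5 and SMA 3 left out together and, chosen after seeing the data, the summed Hdac4 rows. Positions and exon lengths are from GENCODE M21, on the same build. No pair of libraries within a group agreed within sampling noise.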

Additional observations from a re-analysis of the deposited data

Results flagged for a closer look

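In 10 cases 1 library lay far from the others of its group, by the gap to its nearest neighbour as a share of the range. None of the 9 genes was among them. They came from 110 groups (55 named genes in 2 groups), and chance alone gives about 1 in 20. Among family genes, Hdac6 was at 11.6 CPM in wild type 5 (13.55 to 13.99 in the others), Six3 at 0.671 CPM in SMA 3 (0 in the others) and Six6 at 0.035 CPM in wild type 4 (0 in the others). Among partners and kinases, Rfxank was at 19.0 CPM in SMA 1 (17.87 to 17.995), Camk2a at 150 CPM in SMA 3 (181 to 184) and Sik3 at 73.1 CPM in SMA 3 (104 to 109). Of the targets, Chrnb1 was at 173 CPM in wild type 3 (151 to 156) and Myog at 140 CPM in wild type 5 (115 to 122). 4931440F15Rik was at 1.15 CPM in SMA 3 (2.35 to 2.42) and Smn1 at 11.1 CPM in wild type 4 (13.1 to 13.8).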

How the results depend on the processing

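The counts of genes called, and of members called in either direction, stayed within 1.5 times their values in all 18 alternatives. The number of genes that fell was 2164 instead of 4319 under scaling to total counts. That scaling turned the sign for Dach1 (0.0686), Eya1 (0.0485), Hdac1 (0.14), Hdac3 (0.20), Hdac8 (0.21) and Chrne (0.0560). With 1 library left out, Six4 ranged from -0.0441 to 0.0936 and was below 0 without wild type 1 (-0.0185), wild type 4 (-0.0108) or SMA 2 (-0.0441). Without wild type 5 and SMA 3, Hdac8 was 0.0075. Hdac8 was 0.0534 with sex as a covariate. The cause was not tested. With 1 library left out, members that fell ranged from 0 to 1. The replicate block called 7879 genes against 8712 and 1 member as lower, Hdac9 (-0.51), and gave Hdac8 as 0.000318. Deviations of same-numbered libraries correlated at 0.118, -0.00555, -0.0482 and 0.0971, and those of other pairs at -0.318 to 0.174. These values do not decide whether the numbers pair the libraries. Sex is unevenly spread over the groups. Depth limits Dach2 in wild type, at 1 to 14 reads.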
